A study of Mus musculus with 12 samples.

Results

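The mouse major urinary protein (Mup) genes form a cluster of near-identical copies. The genes described here are Mup1, Mup3, Mup11, Mup12, Mup16, Mup19, Mup20 and Mup21, which are 8 of the 54532 rows of the liver count table and 8 of its 48 rows with a Mup symbol. They were taken by gene symbol after an earlier look at these libraries, in which their levels differed between the ANG8 and Ad_GFP groups. Their values in that comparison are therefore given as a description without a test, and the comparison of shANG8 with shCtrl, which holds other libraries, is the tested one. Its main fit took the scatter from all 12 libraries, however. The spread within Ad_GFP and ANG8 thus also bears on its p-values and on the number of members called.

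Major urinary proteins are small secreted lipocalins, barrel-shaped carriers that hold volatile ligands in a pocket. Hepatocytes make them in large amounts, the kidney passes them into urine, and mice read them as scent signals of identity, sex and status. Their transcription in liver depends on growth hormone acting through JAK2 and STAT5, and adult males generally make more than females. ANGPTL8, the protein the study manipulates, is a secreted factor of liver and fat that takes part in inhibiting lipoprotein lipase.

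Liver RNA came from wild-type (WT) mice on chow, sampled after 9 days of adenovirus treatment, with 3 libraries in each of 4 groups. Ad_GFP received a control virus and ANG8 a virus that raises ANGPTL8, while shCtrl received a control hairpin virus and shANG8 a virus with a hairpin against Angptl8. All 4 groups thus carry adenovirus, and no untreated liver was analysed here. The labels give no strain, sex or age and do not say that libraries come from separate mice, so each p-value reflects the scatter among libraries, part of which may be technical. Libraries held 12537083 to 15144312 counts. Xist was at 0 to 0.444 counts per 1000000 counts of the library (CPM) and Ddx3y, a Y-linked gene, at 31.1 to 59.9 CPM in the 12 libraries. By these genes all 12 libraries look male, although the labels do not state the sex. Angptl8 itself was at 96.7, 80.3 and 89.95 CPM in Ad_GFP and at 164, 313 and 172 CPM in ANG8 (log2 fold change 1.28, SE 0.33). It was at 340, 390 and 167 CPM in shCtrl and at 144, 142 and 79.2 CPM in shANG8. The lower level in shANG8 did not pass edgeR's quasi-likelihood test (log2 fold change -1.29, SE 0.33, adjusted p = 0.235), although the groups did not overlap. Over 20 alternatives its adjusted p lay between 1.87e-07 (no low-count filter) and 0.592. The difference also passed under DESeq2 (0.00936), under a replicate block (0.0365) and when shCtrl replicate 3 was left out (0.0335). ANG8 was not the group with the most counted Angptl8. Replicates 1 and 2 of shCtrl (340 and 390 CPM) lay above every ANG8 library, and replicate 3 (167 CPM) lay within the ANG8 range. ANG8 thus had more counted Angptl8 than its own control, Ad_GFP, but not more than shCtrl. The species of the ANGPTL8 sequence in the virus is unknown here.

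The 48 Mup rows comprise 21 protein-coding genes and 27 pseudogenes, and 47 of them lie on chromosome 4 between 59956804 and 62150863 (GRCm38 coordinates of the deposited table). Of the 21 protein-coding genes 20 are on the minus strand. All 8 members passed the filter on low counts, as did 19 other Mup rows (11 coding genes and 8 pseudogenes), while 9 rows had no counts in any library. Of the members, 5 are nearly the same gene, and the coding sequences of Mup1, Mup11, Mup12, Mup16 and Mup19 are 98.9% to 99.8% identical over 10 pairs. They are 90.6% to 91.3% identical to Mup20 and 82.7% to 84.7% identical to Mup3 and Mup21, which are 94.7% identical to each other. The same 90-base exonic stretch of each coding sequence shows how little there is to tell the copies apart (GENCODE vM21 transcripts, 5′ to 3′ on the coding strand, bases that differ from Mup12 in capitals).
Mup12: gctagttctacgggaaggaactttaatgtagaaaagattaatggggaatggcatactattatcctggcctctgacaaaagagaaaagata
Mup1: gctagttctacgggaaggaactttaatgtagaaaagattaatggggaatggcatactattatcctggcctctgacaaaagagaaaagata
Mup11: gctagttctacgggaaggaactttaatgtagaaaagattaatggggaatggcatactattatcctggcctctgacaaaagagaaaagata
Mup19: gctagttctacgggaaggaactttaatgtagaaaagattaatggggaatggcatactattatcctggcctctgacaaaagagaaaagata
Mup16: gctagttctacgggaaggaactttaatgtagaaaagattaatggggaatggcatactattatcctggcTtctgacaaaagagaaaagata
Mup20: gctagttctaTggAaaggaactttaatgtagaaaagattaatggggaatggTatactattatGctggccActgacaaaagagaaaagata
Mup3: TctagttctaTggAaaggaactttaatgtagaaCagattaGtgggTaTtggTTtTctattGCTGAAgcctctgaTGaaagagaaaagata
Mup21: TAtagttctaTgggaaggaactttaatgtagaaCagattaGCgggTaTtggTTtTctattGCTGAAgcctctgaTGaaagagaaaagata
In this stretch, bases 61 to 150 of the coding sequence of Mup12, the copies Mup1, Mup11 and Mup19 have 0 differences from Mup12. Mup16 has 1 difference, Mup20 has 5, Mup3 has 18 and Mup21 has 19.

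Reads from such stretches cannot be assigned to a copy, so the share of each transcript that occurs in no other gene was measured. Of all 100-base stretches of the annotated transcripts, 97.8% of those of Mup3, 95.5% of those of Mup21 and 61.2% of those of Mup20 occurred in no other gene. The shares were 44.3% for Mup1, 29.4% for Mup11, 22.5% for Mup12 and 17.6% for Mup16. Mup19 had 0 unique stretches of 965, each of which also occurred in at least 1 of 17 other Mup genes. Each gene that shared a stretch with a member was another Mup gene of that annotation. How reads that match several genes were counted is not given in the sources used here. Values of Mup1, Mup11, Mup12, Mup16 and Mup19 are therefore uncertain as values of single genes, whereas Mup3, Mup21 and for the larger part Mup20 can be read as single genes.

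Promoters were listed in RefSeq (GRCm38.p6) for 4 of the 8 members. They are shown because Mup genes with very different levels have the same motif letters near their starts, and each is the 250 bases before the annotated start, on the minus strand, with matches to ATCAATA and TATAA in capitals.
Mup3 (chr4:62087318-62087567): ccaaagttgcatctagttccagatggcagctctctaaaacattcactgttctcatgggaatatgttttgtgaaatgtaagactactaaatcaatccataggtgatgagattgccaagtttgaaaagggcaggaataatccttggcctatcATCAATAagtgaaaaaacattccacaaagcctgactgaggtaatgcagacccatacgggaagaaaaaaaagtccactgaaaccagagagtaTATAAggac
Mup21 (chr4:62150842-62151091): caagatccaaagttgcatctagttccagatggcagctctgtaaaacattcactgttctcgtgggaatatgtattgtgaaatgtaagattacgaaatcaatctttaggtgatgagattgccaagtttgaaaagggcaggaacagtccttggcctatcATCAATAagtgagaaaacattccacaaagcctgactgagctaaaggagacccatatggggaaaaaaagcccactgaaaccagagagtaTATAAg
Mup11 (chr4:60662396-60662645): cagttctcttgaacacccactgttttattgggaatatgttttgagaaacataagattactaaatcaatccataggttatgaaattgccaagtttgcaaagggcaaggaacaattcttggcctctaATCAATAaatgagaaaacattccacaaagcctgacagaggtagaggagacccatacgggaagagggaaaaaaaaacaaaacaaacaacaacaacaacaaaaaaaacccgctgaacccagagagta
Mup19 (chr4:61782225-61782474): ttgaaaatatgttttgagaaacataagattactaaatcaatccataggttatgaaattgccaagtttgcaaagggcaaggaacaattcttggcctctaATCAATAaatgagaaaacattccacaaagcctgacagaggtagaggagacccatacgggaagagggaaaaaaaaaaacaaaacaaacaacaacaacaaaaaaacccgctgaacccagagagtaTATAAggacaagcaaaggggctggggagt
ATCAATA is a core of sites bound by ONECUT1, a liver transcription factor, and TATAA is the core of the TATA box. On either strand, ATCAATA occurred in the promoters of all 14 protein-coding Mup genes listed, against 1.86% of the 32851 promoters of the same length in the table. TATAA occurred in 11 of the 14 (22.8% of all promoters). The Mup11 window has none, but it ends at the letters that come just before TATAA in the Mup19 window. TATAA began 29 bases before the listed start in Mup19, 9 in Mup3 and 6 in Mup21. Where the annotated start lies thus bears on this count. TTCNNNGAA, the palindrome that STAT proteins bind, occurred in 0 of the 14 windows (7.02% of all promoters), and AGAACA, a core of steroid receptor sites, occurred in Mup3 and Mup21 (16.1% of all promoters). None of these matches overlaps another in the windows shown. Several of the 14 windows are near copies of each other, with 97.6% identity for Mup15 and Mup17 and 96.5% for Mup9 and Mup19. Others are less alike, such as those of Mup9 and Mup3 (56.0%). The windows are thus not 14 separate promoters, and no enrichment or lack of a motif is read from these shares. Matches describe letters and do not show that a factor binds, and the windows hold no more than the 250 bases before each start.

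Mup transcripts were abundant in the control livers. The 8 members held 0.627% to 1.38% of all counts in the Ad_GFP libraries, 0.319% to 0.508% in ANG8, 1.16% to 1.25% in shCtrl and 0.883% to 1.44% in shANG8. Their summed level (CPM after scaling libraries with edgeR's TMM factors, as for all levels) was 9936 ± 3316 CPM in Ad_GFP and 3814 ± 539 in ANG8 (SD, n = 3). In the knockdown arm it was 12304 ± 738 CPM in shCtrl and 11521 ± 3593 in shANG8. Each ANG8 library lay below each of the other 9 libraries, and the log2 fold change of the sum was -1.38 for ANG8 minus Ad_GFP and -0.09 for shANG8 minus shCtrl. The members made up 93.3% ± 3.32 of the counts of all Mup rows in Ad_GFP and 95.6% ± 1.09 in ANG8, so the sum over the family followed them.

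**Figure D1:**
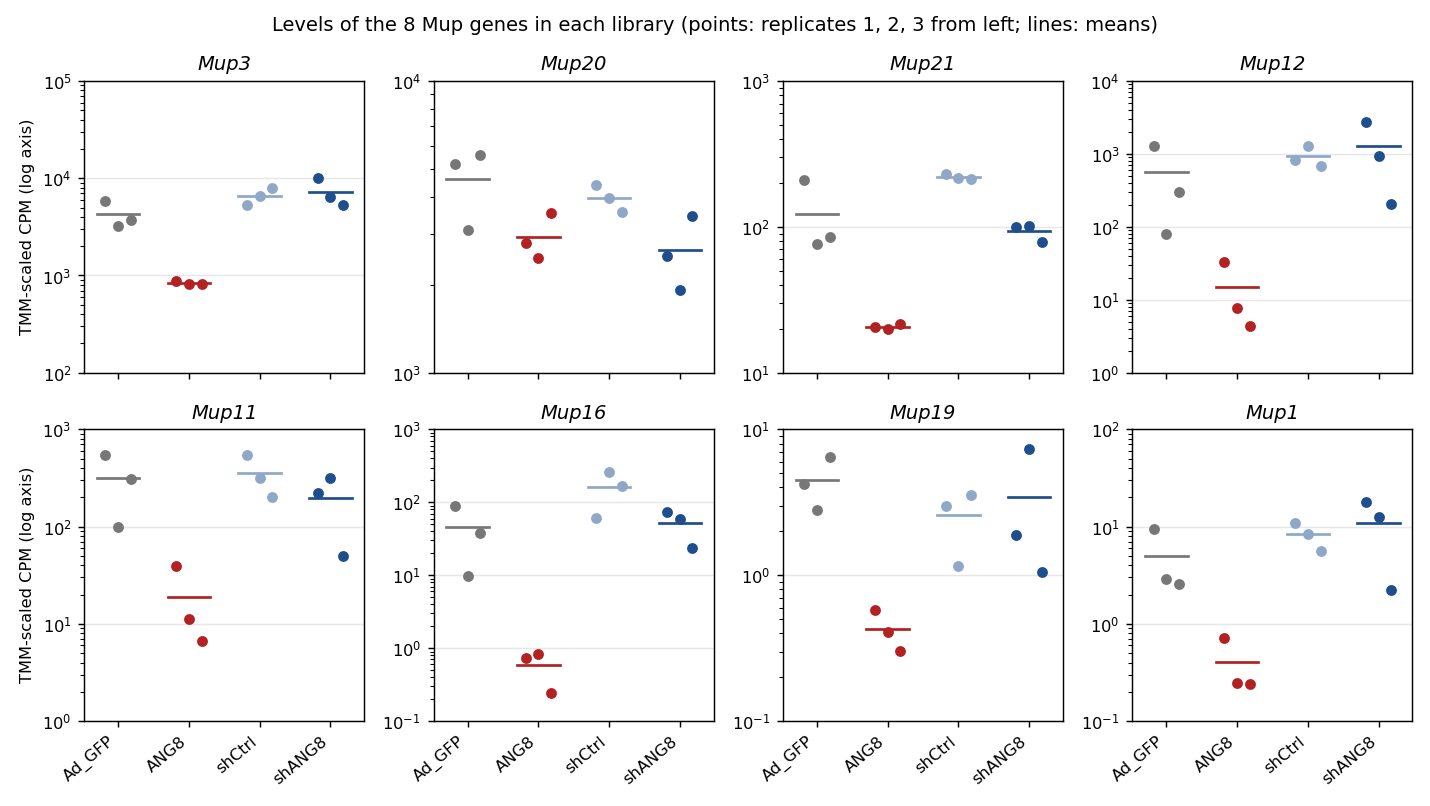
TMM-scaled CPM (log axis, its range set for each gene) of the 8 Mup genes in the 12 libraries. Points are libraries, replicates 1 to 3 from left to right within a group, and lines are group means. Mup3 and Mup21 sit tightly in ANG8 (811 to 869 and 20.1 to 21.5 CPM) below all other libraries, while for Mup20 the ANG8 and Ad_GFP libraries overlap.

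Mup3, a member whose transcript is nearly unique and which is among the more divergent genes at the edge of the cluster, lies at chr4:62083476-62087342 (ENSMUSG00000066154, minus strand). Its level was 5862, 3225 and 3694 CPM in Ad_GFP and 869, 811 and 813 CPM in ANG8. The groups did not overlap, and the log2 fold change was -2.36 (SE 0.28), which leaves 19.5% of the Ad_GFP mean. It was 5354, 6579 and 7986 CPM in shCtrl and 9964, 6474 and 5280.3 CPM in shANG8. Here the groups overlapped, and the difference did not pass edgeR's test (0.12, SE 0.27, adjusted p = 0.954).

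Mup21 lies next to Mup3 at the end of the cluster (chr4:62147932-62150863, ENSMUSG00000066153, minus strand). In Ad_GFP it was at 209, 76.0 and 85.7 CPM and in ANG8 at 20.6, 20.1 and 21.5 CPM, again without overlap (log2 fold change -2.57, SE 0.30). In shCtrl it was at 231, 217 and 211 CPM and in shANG8 at 99.9, 102 and 78.4 CPM. Every shANG8 library thus lay below every shCtrl library as well, at 42.5% of the shCtrl mean. That difference did not pass edgeR's test with the adjustment over all tested genes (log2 fold change -1.23, SE 0.29, unadjusted p = 0.000646, adjusted p = 0.160). It passed in 5 of 20 alternatives: DESeq2 (adjusted p = 0.00694), no filter on low counts (4.09e-07), the knockdown arm fitted alone (0.00691), and without Ad_GFP replicate 1 (0.000934) or Ad_GFP replicate 2 (0.0429). The highest adjusted p among the alternatives was 0.469, and the fold change itself stayed between -1.31 and -1.12.

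Mup20 encodes darcin, the male-typical pheromone protein that draws females to a male's scent mark (chr4:62050234-62054158, ENSMUSG00000078672, minus strand). It was at 5200.2, 3096 and 5558 CPM in Ad_GFP and at 2776, 2465 and 3539.6 CPM in ANG8. Its groups overlapped, since ANG8 replicate 3 lay above Ad_GFP replicate 2, and its log2 fold change of -0.66 (SE 0.26) was the least negative of the 8. It was at 4413, 3979 and 3553 CPM in shCtrl and at 2519.7, 1915 and 3439 CPM in shANG8. These 2 groups did not overlap, but the difference did not pass edgeR's test (-0.60, SE 0.26, unadjusted p = 0.0343, adjusted p = 0.584). For Mup20 the 2 log2 fold changes were thus -0.66 and -0.60, while for Mup3 they were -2.36 and 0.12, and no test of the difference between the arms was run for the members.

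The remaining members are the near-identical copies, whose products are the classical urinary proteins of the central cluster. Mup12 (chr4:60737383-60741326, ENSMUSG00000094793, minus strand) was at 1302, 81.0 and 301 CPM in Ad_GFP and at 33.0, 7.78 and 4.42 CPM in ANG8, a log2 fold change of -5.22 (SE 1.43). It was at 831, 1287 and 682 CPM in shCtrl and at 2749, 950.3 and 205 CPM in shANG8 (0.48, SE 1.19, edgeR adjusted p = 0.961). The ANG8 values lay below all others, but libraries of 1 group differed by up to 16.1-fold. Mup11 (chr4:60658466-60662411, ENSMUSG00000073834, minus strand) was at 547, 98.8 and 306 CPM in Ad_GFP and at 39.3, 11.1 and 6.60 CPM in ANG8 (-4.06, SE 1.03). It was at 552, 315 and 200.3 CPM in shCtrl and at 220.2, 319 and 49.4 CPM in shANG8 (-0.86, SE 0.91, edgeR adjusted p = 0.887). Its libraries held the same order as those of Mup12 within Ad_GFP and within ANG8, groups in which both genes were highest in replicate 1.

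Mup16 (chr4:61515592-61519531, ENSMUSG00000078675, minus strand) had a log2 fold change of -6.30 (SE 1.15), the most negative of the members with all libraries, though without ANG8 replicate 1 that of Mup12 was -6.54 and its own -6.50. It was at 88.9, 9.91 and 38.4 CPM in Ad_GFP and at 0.724, 0.819 and 0.242 CPM in ANG8, which there rests on 10, 10 and 4 counts. In the knockdown arm it was at 61.9, 262 and 166 CPM in shCtrl and at 73.7, 59.7 and 23.3 CPM in shANG8, with overlap (-1.64, SE 0.81, edgeR adjusted p = 0.675). Mup19 (chr4:61778324-61782269, ENSMUSG00000078673, minus strand) and Mup1 (chr4:60498012-60501960, ENSMUSG00000078683, minus strand) were the scarcest. Mup19 was at 4.23, 2.81 and 6.45 CPM in Ad_GFP and at 0.579, 0.409 and 0.303 CPM in ANG8 (-3.37, SE 0.71; 8, 5 and 5 counts in ANG8). It was at 2.98, 1.16 and 3.57 CPM in shCtrl and at 1.89, 7.39 and 1.05 CPM in shANG8 (0.42, SE 0.60, edgeR adjusted p = 0.921). Since no 100-base stretch of its transcript is its own, these counts cannot be told apart from those of its copies. Mup1 was at 9.48, 2.88 and 2.55 CPM in Ad_GFP and at 0.724, 0.246 and 0.242 CPM in ANG8 (-3.61, SE 0.90; 10, 3 and 4 counts in ANG8). It was at 10.98, 8.46 and 5.62 CPM in shCtrl and at 17.9, 12.5 and 2.25 CPM in shANG8 (0.37, SE 0.66, edgeR adjusted p = 0.941).

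Over the members, 7 of 8 had ANG8 libraries that lay below all Ad_GFP libraries, and Mup20 was the exception. Of all 14686 tested genes 16.2% had such groups, and nothing is read from the members' count because this contrast chose them. The same 7 members were lower in each ANG8 library than in each of the other 9 libraries, a pattern shown by 8.55% of tested genes. Under knockdown edgeR called 0 of 8 members, where 0.191% of all tested genes were called (28 genes; 0.129% were called lower and 0.0613% higher). At an unadjusted p under 0.05 there were 2 members, Mup20 and Mup21, beside 7.93% of all tested genes, and DESeq2 called 1 (Mup21) and limma voom 0. In 2 of 8 members, again Mup20 and Mup21, the shANG8 libraries lay below all shCtrl libraries, beside 6.78% of tested genes, and 0 of 8 lay above them, beside 6.16%. The members' median log2 fold change under knockdown was -0.24, with 4 negative and 4 positive values, and that of all tested genes was 0.0079. The precision differed between members, since the SE under knockdown was 0.27 for Mup3 and 1.19 for Mup12.

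**Figure D2:**
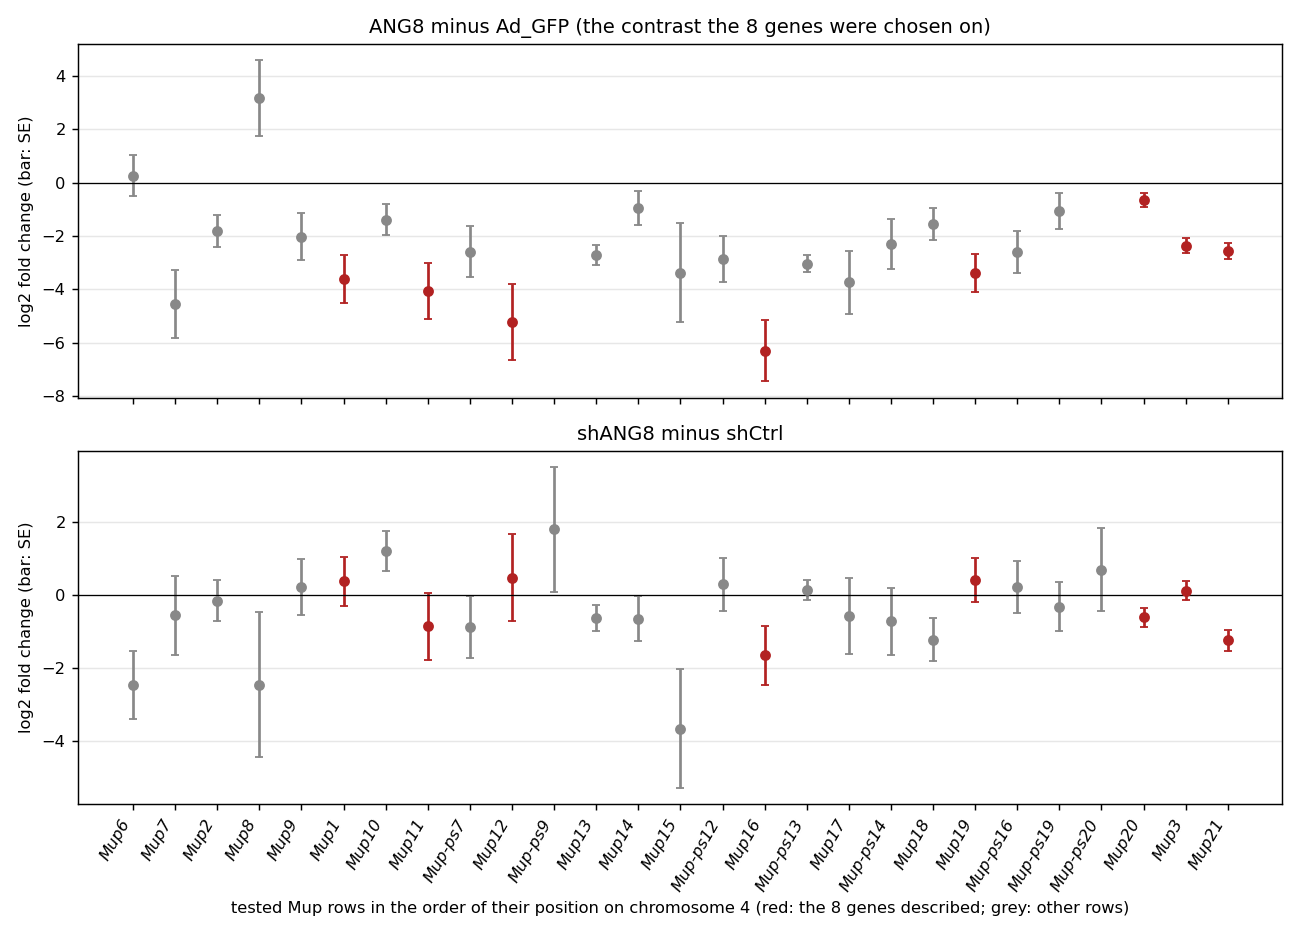
Log2 fold changes of the 27 tested Mup rows in their order along chromosome 4, for ANG8 minus Ad_GFP (upper panel) and shANG8 minus shCtrl (lower panel). Red points are the 8 genes described, grey points other Mup rows, and bars are SE. Mup-ps20 and Mup-ps9 are not drawn in the upper panel because they had 0 counts in 1 or both groups. The red points lie between -6.30 and -0.66 above and between -1.64 and 0.48 below.

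The members differed by unequal folds, and the composition of the Mup pool differed between groups. Mup20 held 44.2% ± 7.99 (SD, n = 3) of the counts of all Mup rows in Ad_GFP and 73.1% ± 3.82 in ANG8. Mup3 held 40.6% ± 6.64 and 21.1% ± 3.01, and the 5 near-identical members together held 7.43% ± 5.37 and 0.909% ± 0.854. In shCtrl the shares were 30.3% ± 5.14 for Mup20, 49.9% ± 7.27 for Mup3 and 11.1% ± 3.15 for the 5 copies. In shANG8 they were 23.4% ± 11.4, 59.6% ± 3.41 and 11.5% ± 7.86. The Mup20 share thus lay higher in each ANG8 library (70.1% to 77.4%) than in each Ad_GFP library (35.6% to 51.4%). A share of 1 member depends on the levels of the others, and a high share of Mup20 in ANG8 accompanies a Mup20 level that was no higher than in the controls.

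**Figure D3:**
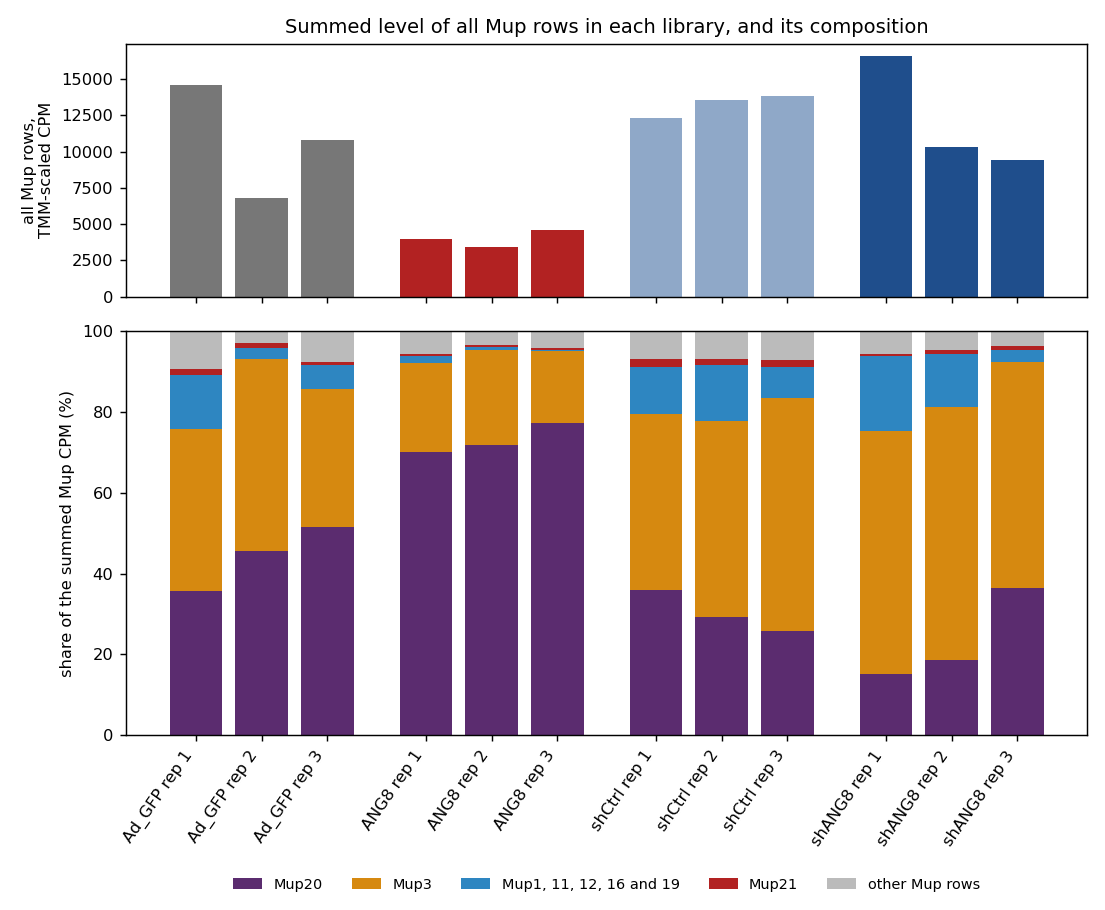
Summed TMM-scaled CPM of all Mup rows in each library (upper panel, bars from 0) and the share of each member or group of members in it, in percent (lower panel). ANG8 libraries have the lowest sums, between 3435 and 4575 CPM, and the largest Mup20 shares.

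Per kilobase of transcript, the order of the members also differed between groups. In Ad_GFP, Mup20 (4976 CPM per kb) and Mup3 (3989) led and their ranges overlapped, followed by Mup12 (606), Mup11 (201), Mup21 (182), Mup16 (44.1), Mup19 (4.23) and Mup1 (3.14). Of these neighbours Mup12 and Mup11, Mup11 and Mup21, and Mup19 and Mup1 overlapped in their ranges over libraries. In ANG8 the order per kb was Mup20 (3154), Mup3 (778), Mup21 (30.6), Mup12 (16.3), Mup11 (12.1), Mup16 (0.573), Mup19 (0.405) and Mup1 (0.255). There, Mup20 and Mup3 no longer overlapped. The range of Mup12 overlapped those of Mup21 and Mup11, which did not overlap each other (29.6 to 31.8 and 4.19 to 24.9). Mup16, Mup19 and Mup1 were not separated. In shCtrl Mup3 led (6217 CPM per kb) above Mup20 (4290.3) without overlap. In shANG8 Mup3 (6778) was again above Mup20 (2828), and Mup20 overlapped with Mup12 (1405).

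The controls differed too, which bears on how low the ANG8 levels look. In shCtrl minus Ad_GFP, a contrast that shares Ad_GFP with the one the members were chosen on and is given as a description, the log2 fold change was 0.64 (SE 0.27) for Mup3 and 0.83 (SE 0.29) for Mup21. For Mup21 each shCtrl library lay above each Ad_GFP library. The values were 1.83 (SE 0.81) for Mup16, 0.73 (SE 1.19) for Mup12 and -0.21 (SE 0.26) for Mup20, all with overlap. For the sum of the 8 members it was 0.31.

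In Ad_GFP the libraries were ordered alike across most members, with replicate 1 highest for 6 of 8 and replicate 2 lowest for 7 of 8. In shANG8, replicate 3 was lowest for 7 of 8, while the highest was replicate 1 for 4, replicate 2 for 3 and replicate 3 for 1. In ANG8, replicate 1 was highest for 5 and replicate 3 lowest for 5. In shCtrl the highest was replicate 1 for 4 and replicates 2 and 3 for 2 each, and replicate 3 was lowest for 5. The share of counts from mitochondrial genes was 19.8%, 34.9% and 26.4% in Ad_GFP replicates 1, 2 and 3, so the library with the lowest Mup levels had the highest mitochondrial share in that group. In ANG8 the mitochondrial shares were 39.0%, 43.8% and 22.5%, a group mean of 35.1% ± 11.2 (SD, n = 3) against 27.1% ± 7.57 in Ad_GFP. The summed members there were at 3739, 3317 and 4386 CPM and Mup20 at 2776, 2465 and 3539.6 CPM, lowest where the mitochondrial share was highest, as in Ad_GFP, while Mup3 was at 869, 811 and 813 CPM. ANG8 replicate 3 had a share of 22.5% and a sum of 4386 CPM, and Ad_GFP replicate 2 had 34.9% and 6592 CPM. With the mitochondrial genes left out of the counts, the log2 fold change of Mup3 for ANG8 minus Ad_GFP was -2.35. Leaving these rows out does not remove what else differs between such libraries, and the part of the mitochondrial share in the Mup levels was not tested. Without Ad_GFP replicate 1, the highest library, the values were -2.06 for Mup3, -1.96 for Mup21 and -3.67 for Mup12, and they were -5.39 for Mup16, -3.42 for Mup11 and -2.73 for Mup1. Without ANG8 replicate 1 they were -6.54 for Mup12, -5.17 for Mup11 and -4.31 for Mup1.

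The spread within groups differed between unique and shared members. The highest library of a group was 1.07 to 2.75 times the lowest for Mup3, Mup20 and Mup21, over all 4 groups. For the 5 near-identical members that ratio ran from 1.89 (Mup12 in shCtrl) to 16.1 (Mup12 in Ad_GFP). The number of genes is 8 and the copies share reads, so this is a description. The ratios of Mup1, Mup16 and Mup19 in ANG8 also rest on few counts. Whether the spread comes from the samples, from counting noise or from the assignment of shared reads was not tested.

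**Figure D4:**
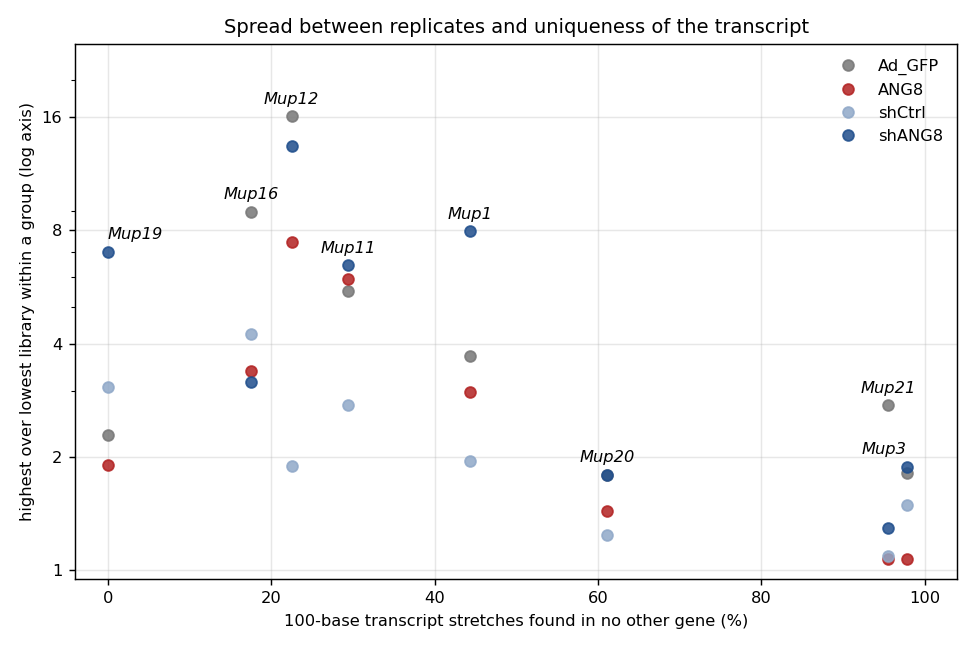
Share of 100-base transcript stretches found in no other gene (horizontal axis, percent) against the ratio of the highest to the lowest library within each group (vertical axis, log scale), 1 point for each of 8 genes and 4 groups. Mup20, Mup21 and Mup3, at 61.2% or more, stay at ratios of 2.75 or less.

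Pairs of members were compared by the root mean square difference of their log2 CPM over the 12 libraries after each gene's own mean was subtracted, a measure that is 0 for the same pattern. Mup3 and Mup21 were the most alike (0.56), and Mup16 and Mup20 the least (2.94). Among the near-identical copies the difference ran from 0.81 (Mup1 and Mup11) to 2.26 (Mup16 and Mup19). Mup12 and Mup16 differed by 0.95 and Mup12 and Mup19 by 2.15. Mup1 was slightly closer to the divergent Mup3 (0.79) than to any of its copies. These pairs share the library and, for the copies, reads.

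The other 19 tested Mup rows lay mostly on the same side in ANG8. Of the 18 with counts in that arm, 16 had negative and 2 positive log2 fold changes, with a median of -2.45 when Mup-ps20 is set at its bound. In ANG8, 9 of the 19 were lower without overlap, beside 16.2% of all tested genes. Some of these rows are near copies of members, such as Mup7, whose coding sequence is 99.3% identical to that of Mup12. Reads may be shared with members that this contrast chose, so nothing is read from the count. Mup7 was at 646, 17.1 and 196 CPM in Ad_GFP and at 7.96, 14.0 and 14.4 CPM in ANG8, and Mup17 at 362, 28.0 and 99.5 and at 26.2, 5.49 and 5.09 CPM. Both had the Ad_GFP order of Mup12, with replicate 1 highest and replicate 2 lowest. The pseudogene Mup-ps13 was steadier, at 27.6, 22.0 and 21.2 CPM in Ad_GFP and 4.56, 1.72 and 2.24 CPM in ANG8. Mup-ps20 had 0 counts in the 3 ANG8 libraries and 12.5, 4.51 and 1.21 CPM in Ad_GFP, at least 85.9-fold lower when a floor of 3 counts over the group is used, for counting error only. Under knockdown 0 of these 19 rows were called, 2 had an unadjusted p under 0.05 (Mup6, -2.46, and Mup10, 1.21), beside 7.93% of all tested genes, and DESeq2 and voom called 0.

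Some rows were high in 1 library alone. Mup8 was at 39.1 CPM in ANG8 replicate 1 and at 0.491 and 0.727 CPM in the other ANG8 libraries, which gave it a positive fold change. Mup15 was at 418 CPM in shCtrl replicate 3 and at 13.5 and 11.8 CPM in the others. Gm21320 (chr4:60817589-60821463, ENSMUSG00000110439, minus strand), which GENCODE vM21 names Mup22, was noticed after its values were seen and is outside the rule for members. It was at 5.42, 13.3 and 5.24 CPM in shCtrl and at 128, 37.2 and 88.4 CPM in shANG8, without overlap. By edgeR's test it was not called (log2 fold change 3.40, SE 0.94, adjusted p = 0.389), whereas DESeq2 (0.0268) and voom (0.0306) called it, and its alternatives reached an adjusted p of 0.773. In ANG8 it was at 3.18, 1.15 and 20.8 CPM and in Ad_GFP at 8.22, 7.17 and 5.58 CPM.

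Genes next to the cluster were mostly not lower in ANG8. Within 1 Mb of the Mup span 24 other genes were tested, with a median log2 fold change of 0.17, and edgeR called 1 higher and 2 lower, beside 13.5% of all tested genes (6.39% lower and 7.08% higher). The gene called higher was Ptgr1 (1.78, adjusted p = 0.0403), whose adjusted p ran up to 0.153 when single libraries were left out. Outside the span Slc31a1, a copper transporter named like Ptgr1 after its value was seen, was called lower (-0.64, SE 0.16, adjusted p = 0.0161), a call lost without Ad_GFP replicate 1, ANG8 replicate 1 or ANG8 replicate 2. Inside the span Gm13775 was called lower (-2.15, SE 0.41, adjusted p = 0.00314), and Gm12909 was not (-0.98, SE 0.35, adjusted p = 0.0865), although DESeq2 (0.0238) and voom (0.0431) called it. Gm13775 shares 100-base stretches with Mup pseudogenes, so its counts may hold reads of theirs. The nearest tested genes outside were Snx30 on one side (0.17, SE 0.28, adjusted p = 0.750) and Zfp37 on the other (1.93, SE 0.79, adjusted p = 0.119). Under knockdown 0 of the 24 were called (28 of all tested genes were).

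Growth hormone signalling and the transcription factors of hepatocytes form the known control of Mup genes, and 31 such genes were tested. This list and those below were chosen with earlier results of these data known. Their calls for ANG8 minus Ad_GFP are therefore read as a description. Under the ANG8 virus edgeR called 4 lower and 2 higher, beside 6.39% and 7.08% of all tested genes, and 25 did not pass, with a median log2 fold change of -0.42, beside a median of -0.00020 over all tested genes. Ghr, the growth hormone receptor, was at 309 ± 82.5 CPM in Ad_GFP and fell to 138 ± 14.8 CPM in ANG8 (-1.17, SE 0.20, adjusted p = 0.00164). Igfals, which encodes the subunit that stabilises circulating IGF1 and is a growth hormone target, fell by 1.16 on the log2 scale (SE 0.24, adjusted p = 0.00483). Both calls held in all 20 alternatives. Igf1 itself fell from 1123 to 647 CPM (-0.80, SE 0.21, adjusted p = 0.0181), and Ppargc1a, a coactivator of energy metabolism, from 9.74 to 3.48 CPM (-1.48, SE 0.38, adjusted p = 0.0179). Socs1, a feedback inhibitor of JAK signalling, rose (1.21, SE 0.33, adjusted p = 0.0236). The list count was 3 without Ad_GFP replicate 1, Ad_GFP replicate 2 or ANG8 replicate 1.

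The calls of Igf1, Ppargc1a and Socs1 were lost when some single libraries were left out. For Igf1 the adjusted p was 0.0544 to 0.0929 without Ad_GFP replicate 1 or 2 or ANG8 replicate 1 or 3, and for Ppargc1a it was 0.0605 to 0.0859 without Ad_GFP replicate 1 or 2 or ANG8 replicate 1 or 2. For Socs1 it was 0.0814 to 0.103 without Ad_GFP replicate 2 or 3 or ANG8 replicate 2. Of 3 further genes picked for their role after their values were seen, Stat5b, the growth hormone-activated transcription factor, had a log2 fold change of -0.26 (SE 0.17, adjusted p = 0.364). Hnf4a, a master regulator of hepatocytes, had -0.24 (SE 0.17, adjusted p = 0.413), and Onecut1 had -0.70 (SE 0.79, adjusted p = 0.630).

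Male-biased liver genes, which like Mup genes follow the male pattern of growth hormone release, were tested as a list of 19 that holds no Mup gene. This list too was chosen with earlier results known, so leaving out Mup genes does not make it independent of them. Under the ANG8 virus 13 fell (6.39% of all tested genes did), 0 rose and 6 did not pass, with a median log2 fold change of -1.36. Cyp4a12b, a fatty acid hydroxylase, fell from 104 ± 8.53 to 38.7 ± 1.68 CPM (-1.42, SE 0.20, adjusted p = 0.000405), and Cyp2d9, a testosterone hydroxylase, from 954 ± 32.7 to 433 ± 64.0 CPM (-1.14, SE 0.18, adjusted p = 0.000695). Slco1a1, an organic anion carrier, fell from 154 to 28.2 CPM (-2.45, SE 0.44, adjusted p = 0.00427). The count was 8 without Ad_GFP replicate 1 or 3 or ANG8 replicate 1 or 3, and 7 without ANG8 replicate 2. Of 13 tested female-biased genes, 1 fell, near the 6.39% of all tested genes that did, and the median was 0.27. The gene that fell was Cyp2c69 (-1.71, SE 0.48, adjusted p = 0.0256). It was not called in the absence of Ad_GFP replicate 3 (adjusted p = 0.139), ANG8 replicate 1 (0.116) or ANG8 replicate 2 (0.0618). Among 10 other lipocalins 3 fell (6.39% of all tested genes), with a list median of -0.63: C8g, a complement component (-1.11, SE 0.22, adjusted p = 0.00339), Rbp4, the plasma retinol carrier (-1.27, SE 0.28, adjusted p = 0.00624), and Ptgds, a prostaglandin synthase (-1.92, SE 0.48, adjusted p = 0.0212). The Ptgds call was lost without any 1 of 5 libraries of the arm, with adjusted p-values up to 0.0773.

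Markers of the cell types in liver, in lists also chosen with earlier results known, differed between these groups as well. Of 20 hepatocyte markers 11 fell (6.39% of all tested genes), 0 rose and 9 did not pass (median -0.96), and their summed level was 61693 to 94430 CPM in Ad_GFP and 35826 to 70603 CPM in ANG8. Examples were Serpina1b, an alpha-1-antitrypsin (-1.46, SE 0.26, adjusted p = 0.00164), and Cps1, the first enzyme of the urea cycle (-1.17, SE 0.22, adjusted p = 0.00264). The hepatocyte count was 5 without Ad_GFP replicate 1, ANG8 replicate 1 or ANG8 replicate 2 and 7 without Ad_GFP replicate 3. Of 12 macrophage markers 10 rose (7.08% of all tested genes) and 2 did not pass (median 1.17), and their summed level was 443 to 604 CPM in Ad_GFP and 1100 to 1422 CPM in ANG8. Aif1 rose from 14.7 to 53.6 CPM (1.86, SE 0.20, adjusted p = 5.35e-05), and the count was 6 without Ad_GFP replicate 1 or ANG8 replicate 3. Of 13 T and NK cell markers 6 rose (7.08% of all tested genes), 1 fell (6.39%) and 6 did not pass (median 0.88), with summed levels of 53.2 to 79.1 and of 136 to 150 CPM. The marker that fell was Cd4, the helper T cell coreceptor (adjusted p = 0.0209), named after its value was seen. In these whole-tissue libraries fewer hepatocytes and less RNA in each hepatocyte cannot be told apart, and the part of either in the Mup levels was not tested. EdgeR called 0 of 6 B cell, 0 of 3 neutrophil, 0 of 8 endothelial, 0 of 8 stellate and 0 of 5 cholangiocyte markers, beside 13.5% of all tested genes. At an unadjusted p under 0.05 there were 0, 0, 1, 0 and 2 of them, beside 27.7% of all tested genes. Lists this short do not show that these cell types were unchanged. DESeq2 and voom each called 1 endothelial marker, Pecam1, named after its values were seen, and none of the others. Of 5 kidney markers Umod and Aqp2 were at 0 in all 12 libraries, and the 5 summed to at most 0.336 CPM. The sum of 7 pancreatic acinar markers was 0.222 to 0.873 CPM in Ad_GFP, 0.164 to 26.9 CPM in ANG8, 0.205 to 0.835 CPM in shCtrl and 0.140 to 7.87 CPM in shANG8, and its part in the results was not tested.

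**Figure D5:**
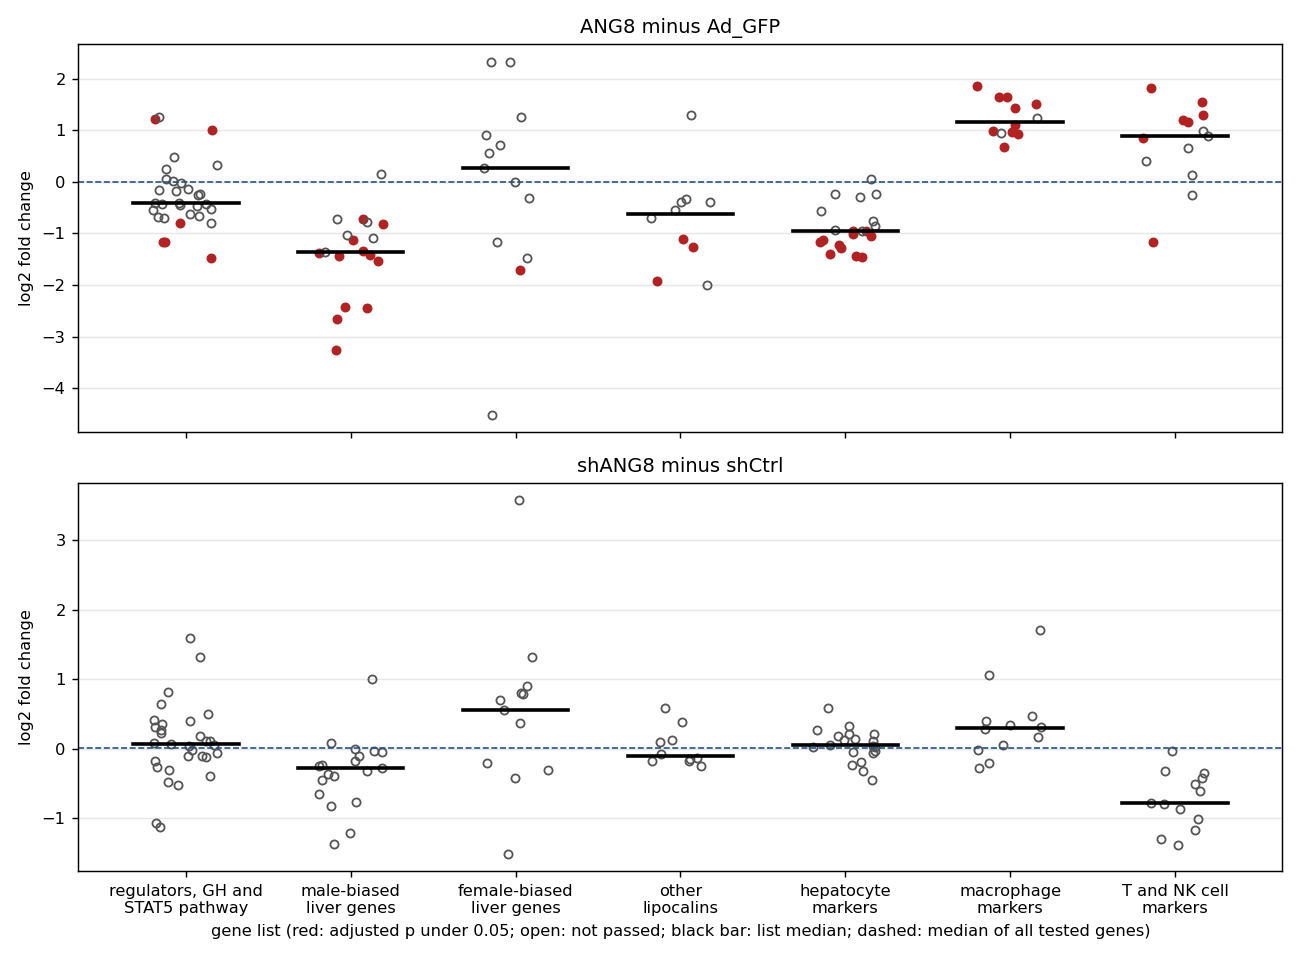
Log2 fold changes of the tested genes of 7 lists for ANG8 minus Ad_GFP (upper panel) and shANG8 minus shCtrl (lower panel). Red points passed an adjusted p of 0.05, open points did not, black bars are list medians and dashed lines the median of all tested genes. Moxd1 in the upper and Cyp2b13 in the lower panel are not drawn because they were at 0 in 1 group. Male-biased genes have a median of -1.36 above and -0.28 below.

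Under knockdown edgeR called 0 genes in each of these lists, beside 0.191% of all tested genes. Of all tested genes 7.93% had an unadjusted p under 0.05. At an unadjusted p under 0.05 there were 4 of 31 regulators, 4 of 19 male-biased genes, 2 of 13 female-biased genes, 0 of 10 lipocalins, 1 of 20 hepatocyte, 2 of 12 macrophage and 6 of 13 T and NK cell markers. DESeq2 called 3 male-biased genes (Cyp4a12a, C6 and Selenbp2, all lower, the last named after its value was seen), 1 macrophage marker (Marco, higher) and 1 T and NK cell marker (Cd8a, lower), and voom called none. Medians were 0.06 for the regulators, -0.28 for male-biased genes, 0.56 for female-biased genes, 0.05 for hepatocyte markers and -0.78 for T and NK cell markers. The smallest p among male-biased genes were those of Cyp4a12a, another fatty acid hydroxylase (-0.83, SE 0.19, adjusted p = 0.140), and the complement gene C6 (-0.77, SE 0.18, adjusted p = 0.160). Ghr was at 443 CPM in shCtrl and 392 CPM in shANG8 (-0.18, SE 0.20, adjusted p = 0.894). Summed hepatocyte markers were 88140 to 116308 CPM in shCtrl and 82374 to 111651 CPM in shANG8.

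The genes whose pattern over the 12 libraries was closest to that of the summed members were plasma protein and hepatocyte enzyme genes, among 10846 genes compared by the root mean square difference of centred log2 CPM. They were Rnase4, a secreted ribonuclease (0.161), Fgg, fibrinogen gamma (0.177), Fetub, fetuin B (0.181), Ghr (0.204), C9, a complement component (0.209), Kng1, kininogen (0.223), Otc, a urea cycle enzyme (0.224), and Serpina1a, an alpha-1-antitrypsin (0.225). Rnase4 was at 646, 292, 815 and 837 CPM in Ad_GFP, ANG8, shCtrl and shANG8, and Ghr at 309, 138, 443 and 392 CPM. Mup3 and Mup20 make up most of that sum. These genes were picked on the same libraries, so their differences in ANG8 are a description.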

How the data were processed

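Liver RNA of 12 libraries was sequenced, 3 in each group; per the labels' protocols it was extracted with Trizol and made into libraries with the NEBNext Ultra RNA kit. The deposited values are raw counts of reads per gene, made with CASAVA 1.8.2 and featureCounts 1.5.0-p3 per the submitters' processing notes. Which aligner, strand setting and annotation were used was not given in the sources used here. Those notes name mm9, but all 48 Mup rows have the coordinates of GENCODE vM21 (GRCm38), the build printed here.

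EdgeR 4.0.16 (R 4.3.3) was run on these counts: filterByExpr, TMM scaling, a robust quasi-likelihood fit of all 12 libraries without covariates, and Benjamini-Hochberg adjustment over 14686 genes, called at an adjusted p under 0.05. Unless another tool is named, each adjusted p is from that fit. SE is the absolute log2 fold change over the square root of F. Alternatives were DESeq2 1.42.0, limma 3.58.1 (voom), other size factors, no filter, mitochondrial or Mup genes left out, each arm alone, a replicate block and each library left out. Replicates differed by more than counting noise (chi-square per gene 13.5 to 135).

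The members and gene lists were chosen with earlier results of these data known. Named genes were the 8 members, up to 4 overexpression and 2 knockdown genes of smallest p in each list, the nearest tested neighbours, and the 8 genes most like the summed members; any others are said to be chosen after their values were seen. Other Mup rows serve as examples and were also picked after their values were seen. A few genes that the rule would name are not reported here.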

Additional observations from a re-analysis of the deposited data

Results flagged for a closer look

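In 6 of the 121 genes examined, every ANG8 library lay on one side of every Ad_GFP library while every shANG8 library lay on the opposite side of every shCtrl library. Among all tested genes 438 (2.98%) had this pattern. The difference between the 2 effects was not tested for any of them. Among Mup rows it was Mup10, with a log2 fold change of -1.39 (SE 0.59) for ANG8 minus Ad_GFP and of 1.21 (SE 0.55) for shANG8 minus shCtrl. Mup10 was at 2.28, 2.29 and 1.75 CPM in Ad_GFP, 0.579, 1.72 and 0.182 CPM in ANG8, 1.69, 1.57 and 1.52 CPM in shCtrl and 3.48, 5.58 and 2.04 CPM in shANG8. Its knockdown difference did not pass edgeR's test (adjusted p = 0.602), and Mup10 shares 100-base stretches with 17 other Mup genes. Among the lists it was Socs1, the JAK inhibitor, with 1.21 and -1.07. The others were T and NK cell markers: Cd8a with 1.54 and -0.80, Nkg7 with 1.21 and -0.78, Lck with 1.30 and -0.32, and Gzma with 1.82 and -1.02.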

How the results depend on the processing

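The log2 fold changes of the 8 members for ANG8 minus Ad_GFP were negative under all 20 alternatives. Under knockdown the number of genes called, 28, became 102 with DESeq2, 132 without the filter on low counts and 55 with the replicate block, and 21 to 39 when 1 library was left out. The number of members called, 0, became 1 (Mup21) with DESeq2, without the filter and with the knockdown arm alone, and was 0 to 1 with 1 library left out (1 without Ad_GFP replicate 1 or 2). For ANG8 minus Ad_GFP, 995 to 2166 genes were called with 1 library left out, against 1978, with 995 without ANG8 replicate 1, 1074 without Ad_GFP replicate 1, 1133 without Ad_GFP replicate 2 and 1307 without ANG8 replicate 2. Some knockdown fold changes near 0 changed sign, and the cause was not tested. Mup1 was at -0.070 with voom, and Mup12 at -0.14 with voom and -0.29 with the replicate block. With 1 library left out, Mup1 ranged from -0.21 (without shANG8 replicate 1) to 0.86, Mup3 from -0.20 (same library) to 0.31, Mup12 from -0.72 (same library) to 0.99, Mup19 from -0.80 (without shANG8 replicate 2) to 0.85, and the summed members from -0.40 to 0.049 (without shANG8 replicate 3). The replicate numbers are not stated to pair samples: deviations of same-numbered libraries correlated by -0.067, 0.116 and 0.149 in the overexpression arm and by 0.034, 0.082 and 0.186 in the knockdown arm. Replicate 1 of ANG8 and replicate 1 of shANG8 correlated best with control replicate 2, the other libraries of these groups with their own number. The members' p-values rest on 3 libraries a group, and the levels of Mup16, Mup19 and Mup1 in ANG8 on 10 counts or fewer a library.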

Other observations

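Among female-biased liver genes, Cyp2a4, a steroid hydroxylase picked after its values were seen, was at 18.3 to 231 CPM in Ad_GFP and at 333 to 753 CPM in ANG8. Its groups did not overlap, but edgeR did not call it (log2 fold change 2.33, SE 1.83, adjusted p = 0.471). The summed female-biased genes were at 56.7 to 325 CPM in Ad_GFP, 411 to 848 CPM in ANG8, 44.6 to 363 CPM in shCtrl and 28.8 to 329 CPM in shANG8. Cyp2a4 made up most of the ANG8 sum, so that sum largely repeats this gene. Of the 13 tested genes of the list 0 were called higher and 1 lower in ANG8, beside 7.08% and 6.39% of all tested genes.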
